A study of Mus musculus with 32 samples.

Results

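The genes described here are 35 genes of mitosis and cytokinesis, chosen by their symbols from the 20560 genes of the deposited expression table, and each was found there once. They run from the cyclins and Cdk1 that start mitosis, through the kinases, the checkpoint, the kinetochore and the spindle, to the motors and furrow regulators of cytokinesis. RNA was sequenced from 3T3-L1, a line of mouse preadipocytes that can be driven to become adipocytes by hormones, after Zbtb9, a gene for a zinc finger protein with a BTB domain, had been knocked down. All 32 libraries come from cells that carried an shRNA: shRNA 1 against Zbtb9, shRNA 2 against Zbtb9, or the scramble control, called the control here. On each of days 0, 3, 7 and 11 there were 2 libraries with shRNA 1, 2 with shRNA 2 and 4 of the control, labelled as biological replicates. On day 0, with cells 2 days past confluence, the cells received insulin at 167 nM, dexamethasone at 1 uM and 3-isobutyl-1-methylxanthine at 0.5 mM. From day 3 the medium held 167 nM insulin alone, and from day 7 none of these. The labels give every library the treatment of adipogenic differentiation and do not say whether the day 0 cells were taken before or after the cocktail went in. They also do not say whether a group was 1 clone or a pool of cells. The control libraries of a day serve both shRNAs, so the 2 comparisons with the control on that day share them.

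Cells enter mitosis when cyclin A and cyclin B bring Cdk1 to full activity, and they leave it when the anaphase-promoting complex, with Cdc20 as its activator and Ube2c as its ubiquitin-conjugating enzyme, has cyclin B and securin destroyed. In between, Plk1 and the Aurora kinases build the spindle and correct its attachments, the checkpoint proteins delay anaphase until kinetochores are attached, and the RhoA activator Ect2 with its centralspindlin partners Kif23 and Racgap1 starts the cleavage furrow. Most of these genes are transcribed late in the cell cycle, with Foxm1 and B-Myb as activators and the DREAM complex as a repressor in resting cells. Confluent 3T3-L1 cells are known to re-enter the cell cycle soon after the hormones are added, a phase called mitotic clonal expansion, and then to leave it as they differentiate. In RNA from whole cultures, fewer dividing cells and less of an RNA per cell cannot be told apart.

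Promoters of late cell cycle genes are known for a pair of short elements: the cell cycle homology region, bound by the DREAM and B-Myb complexes, and CCAAT boxes, bound by the factor NF-Y. The 300-base windows of RefSeq promoters (250 bases before and 50 after a start, mouse build GRCm38.p6) held an entry for 29 of the 35 genes; Ccna2, Aurkb, Tpx2, Kif20a, Incenp and Foxm1 are named only. Both strands were searched for TTTGAA and TTCGAA, the usual letters of the homology region, and for CCAAT. Of the 29 genes, 22 held TTTGAA (75.9%), against 17.9% of all 32851 windows. CCAAT was in 23 of the 29 (79.3%), against 37.4% of all windows, and at least 2 copies were in 16 (55.2%), against 11.7%. TTCGAA was in 3 of the 29 (10.3%), against 1.6%. CCAAT together with either form of the homology region was in 21 of the 29 (72.4%), against 7.5% of all windows. The windows below are shown for the mitotic kinase genes Cdk1 and Plk1, for Ccnb1, whose window held CCAAT but neither form of the homology region, for the checkpoint gene Bub1b, which held both forms, and for Arhgap19, whose window held 4 CCAAT boxes and whose values are described below. Capitals mark the motifs on either strand, so that ATTGG is CCAAT on the other strand, and no 2 marked motifs overlap; the annotated start is base 251 of each window.
Cdk1, GRCm38.p6 chr10:69352863-69353162, minus strand: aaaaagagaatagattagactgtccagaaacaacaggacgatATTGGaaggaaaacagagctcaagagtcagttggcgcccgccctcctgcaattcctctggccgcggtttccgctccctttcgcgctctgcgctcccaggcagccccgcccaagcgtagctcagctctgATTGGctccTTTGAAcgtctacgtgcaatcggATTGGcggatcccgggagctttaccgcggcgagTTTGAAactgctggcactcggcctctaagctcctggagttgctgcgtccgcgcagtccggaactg
Plk1, GRCm38.p6 chr7:122159185-122159484, plus strand: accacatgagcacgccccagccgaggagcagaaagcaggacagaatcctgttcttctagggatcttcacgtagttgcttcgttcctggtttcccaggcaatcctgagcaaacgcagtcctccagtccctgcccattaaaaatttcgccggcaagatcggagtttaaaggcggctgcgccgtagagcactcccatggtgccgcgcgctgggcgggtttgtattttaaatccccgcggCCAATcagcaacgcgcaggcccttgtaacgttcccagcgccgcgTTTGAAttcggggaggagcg
Ccnb1, GRCm38.p6 chr13:100786437-100786736, minus strand: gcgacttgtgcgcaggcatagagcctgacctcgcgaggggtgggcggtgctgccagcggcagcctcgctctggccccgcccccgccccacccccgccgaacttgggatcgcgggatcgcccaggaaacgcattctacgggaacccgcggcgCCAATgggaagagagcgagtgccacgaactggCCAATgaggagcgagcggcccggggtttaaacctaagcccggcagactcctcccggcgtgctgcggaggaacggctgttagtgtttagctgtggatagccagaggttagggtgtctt
Bub1b, GRCm38.p6 chr2:118597961-118598260, plus strand: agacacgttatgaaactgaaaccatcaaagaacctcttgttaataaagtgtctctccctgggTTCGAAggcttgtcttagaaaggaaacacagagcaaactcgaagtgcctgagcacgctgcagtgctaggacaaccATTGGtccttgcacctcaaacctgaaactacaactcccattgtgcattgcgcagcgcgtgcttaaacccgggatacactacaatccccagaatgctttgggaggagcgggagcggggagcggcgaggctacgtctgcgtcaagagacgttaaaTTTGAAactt
Arhgap19, GRCm38.p6 chr19:41802035-41802334, minus strand: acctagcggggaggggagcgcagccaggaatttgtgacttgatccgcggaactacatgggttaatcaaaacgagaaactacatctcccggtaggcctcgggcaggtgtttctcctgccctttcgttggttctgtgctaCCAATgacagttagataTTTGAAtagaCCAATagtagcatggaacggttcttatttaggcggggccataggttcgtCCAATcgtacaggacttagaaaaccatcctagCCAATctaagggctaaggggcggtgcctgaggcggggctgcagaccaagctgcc
In Cdk1 the 2 TTTGAA motifs began 71 and 15 bases before the start, and CCAAT boxes began 208, 80 and 48 bases before it. In Plk1 the single CCAAT began 14 bases before the start and TTTGAA 30 bases after it. A match of letters is a description of the window and not a measured binding site.

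Values were deposited as log2 numbers, and whole reads could be rebuilt from them, which gave 22280321 to 31073716 reads in genes per library. A level below is the log2 value as deposited or, where called normalized reads, the rebuilt reads scaled by each library's size factor. A difference is between group means of log2 values. Where reads are few, as for many of the 35 genes at day 11, these values lie closer together than normalized reads do. Sizes and rankings of differences below therefore hold for the deposited scale. A gene is said to have risen or fallen, or to be called, where limma gave an adjusted p under 0.05 over all genes tested, of which there were 13139 to 13571. All 35 genes passed the filter on low values in every comparison. Zbtb9 itself was low throughout, at 6.35 to 22.3 normalized reads over the control libraries and 0.00 to 19.3 over the knockdown libraries. Its mean was lower with each shRNA than in the control on every day, but the groups did not separate throughout. At day 3 shRNA 1 (0.00 and 7.41) and shRNA 2 (4.39 and 8.99) both overlapped the control range of 6.35 to 12.6, and at day 11 shRNA 1 (8.17 and 19.3) overlapped that of 12.1 to 20.0. The preadipocyte markers Dlk1, Pdgfra and Col1a1 were present in every library, and Cd34 did not pass 19.2 normalized reads. Of the 7 preadipocyte markers tested (of 8), 5 were lower and 1 higher with shRNA 1 at day 0 (median −0.32), and 4 were lower with shRNA 2 (median −0.10). In the joined knockdown 3 were lower and 1 higher at day 3 (median −0.26), 6 were lower at day 7 and 5 at day 11 (both medians −0.46). Over all libraries the 4 endothelial markers summed to at most 46.7 normalized reads, mostly Pecam1, and the 3 epithelial markers to at most 26.1. Their defining genes Kdr and Epcam did not pass 4.25 and 2.85, nor did the leukocyte gene Ptprc pass 3.04. All 8 adipocyte markers were called higher in the knockdown at days 3, 7 and 11, with medians of 0.97, 1.96 and 1.78 and with Pparg, Fabp4 and Adipoq among them. The macrophage markers Cd68 and Lyz2 made up most of a summed macrophage level of 313 to 639 normalized reads in the knockdown at day 11, against 209 to 308 in the control. The part of these marker changes in the results below was not tested.

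In the control, the mean log2 level of the 35 genes was 9.02 ± 0.03 at day 0 (SD, n = 4), 8.78 ± 0.09 on day 3, 8.52 ± 0.13 on day 7 and 7.13 ± 0.08 on day 11. With shRNA 1 it was 9.95 ± 0.05 at day 0 (SD, n = 2), 9.10 ± 0.04 on day 3, 8.96 ± 0.03 on day 7 and 7.18 ± 0.10 on day 11. With shRNA 2 it was 8.96 ± 0.01, 9.00 ± 0.05, 9.19 ± 0.10 and 6.51 ± 0.06 on the same days. The shRNA 1 libraries thus stood highest on day 0, both knockdown arms lay above the control on days 3 and 7, and the shRNA 2 libraries stood lowest on day 11. Together the 35 genes took 0.186% and 0.195% of all reads in genes in the shRNA 1 libraries of day 0, against 0.0940% to 0.101% in the other libraries of that day. At day 11 their share was 0.0154% to 0.0259% over all libraries. Of the 35 genes, 32 had their highest group mean of all 12 groups in shRNA 1 at day 0, and 32 had their lowest in shRNA 2 at day 11. The exceptions at the top were Top2a, highest in the day 3 control, Mad2l1, highest in shRNA 1 at day 3, and Spc25, highest in shRNA 2 at day 7. Cdk1, Anln and Arhgap19 had their lowest mean in the day 11 control.

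**Figure D1:**
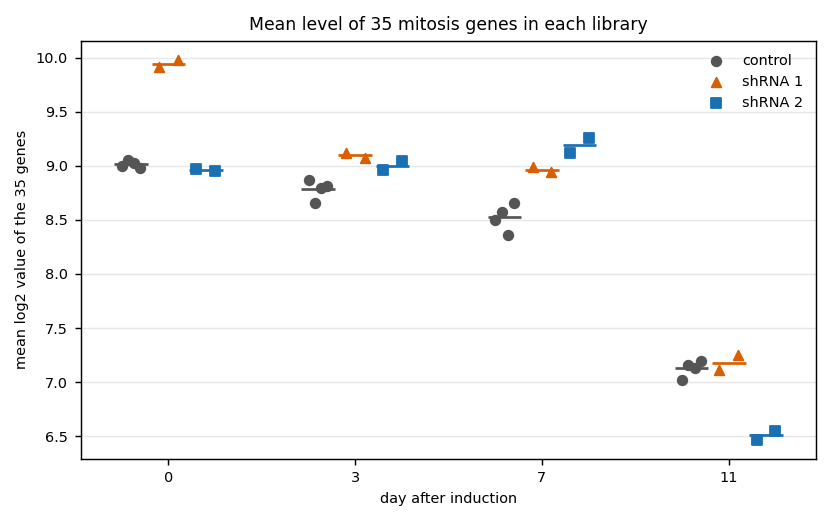
Mean log2 value of the 35 genes in each library (points) by day after induction, for the control (4 libraries a day), shRNA 1 and shRNA 2 (2 each); short lines are group means. The shRNA 1 libraries of day 0 lie at 9.91 and 9.98 against a control mean of 9.02, and the shRNA 2 libraries of day 11 at a mean of 6.51 against 7.13.

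Within the control libraries the genes changed with the days, on which time in culture and hormone medium changed together and cannot be told apart. From day 0 to day 3, 4 of the 35 rose and 13 fell, with a median difference of −0.07 (0.00 over all genes), where 38.3% of all genes tested rose and 38.2% fell, so that the count of falls lies near the background and that of rises below it. The 4 that rose were Top2a, the topoisomerase that untangles sister chromatids (1.48, SE 0.07, adjusted p = 2.75e-13), Birc5, the survivin subunit of the chromosomal passenger complex (0.31), Mad2l1 (0.30) and Nusap1 (0.28). The largest falls were those of Kif23 (−1.30, SE 0.14, adjusted p = 1.21e-09), Plk1 (−1.20, SE 0.12, adjusted p = 4.04e-11) and the contractile ring gene Anln (−1.20, SE 0.11, adjusted p = 8.63e-10). Of the 6 cytokinesis genes 4 fell in this step and none rose, with a median of −0.78. With libraries rescaled to equal totals, the median of all genes moved to −0.13 and the 35 genes gave 2 higher and 19 lower, while the share of higher calls over all genes went from 50.1% to 38.6%. From day 3 to day 7, 4 genes rose and 20 fell (median −0.22), where 37.6% of all genes rose and 36.6% fell. Cenpa, the centromeric histone H3 variant (0.38), Plk1 (0.32), Ccnb2 (0.29) and Aurkb (0.25) rose; the call for Ccnb2 was lost without day 3 control replicate 2 or 3 or day 7 control replicate 1, 2 or 4, that for Plk1 without day 3 control replicate 2 or 3, and that for Aurkb without day 3 control replicate 2. Top2a fell by 1.77 on the log2 scale and Bub1b by 0.91. From day 7 to day 11 all 35 genes fell, with a median of −1.39, where 28.9% of all genes rose and 26.1% fell. The falls ran from −0.68 in Arhgap19 and −0.71 in Cdk1 to −2.22 in Kif11 and Nusap1, −2.24 in Birc5 and −2.29 in Mki67.

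Measured against day 0, the control kept a median of 20.2% of its normalized reads at day 11 over the 35 genes, from 12.2% in Mki67 to 57.2% in Arhgap19. Cdk1 kept 55.9%, so the share kept differed widely between genes. In shRNA 1 the median was 11.5% and in shRNA 2 it was 11.3%, the former against a higher start. With shRNA 2 the range at day 11 ran from 3.52% in Nusap1 to 71.4% in Cdk1. At day 7, the median was 71.9% of day 0 in the control, 51.5% in shRNA 1 and 123% in shRNA 2. These ratios are descriptions of group means and were not tested as such.

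**Figure D2:**
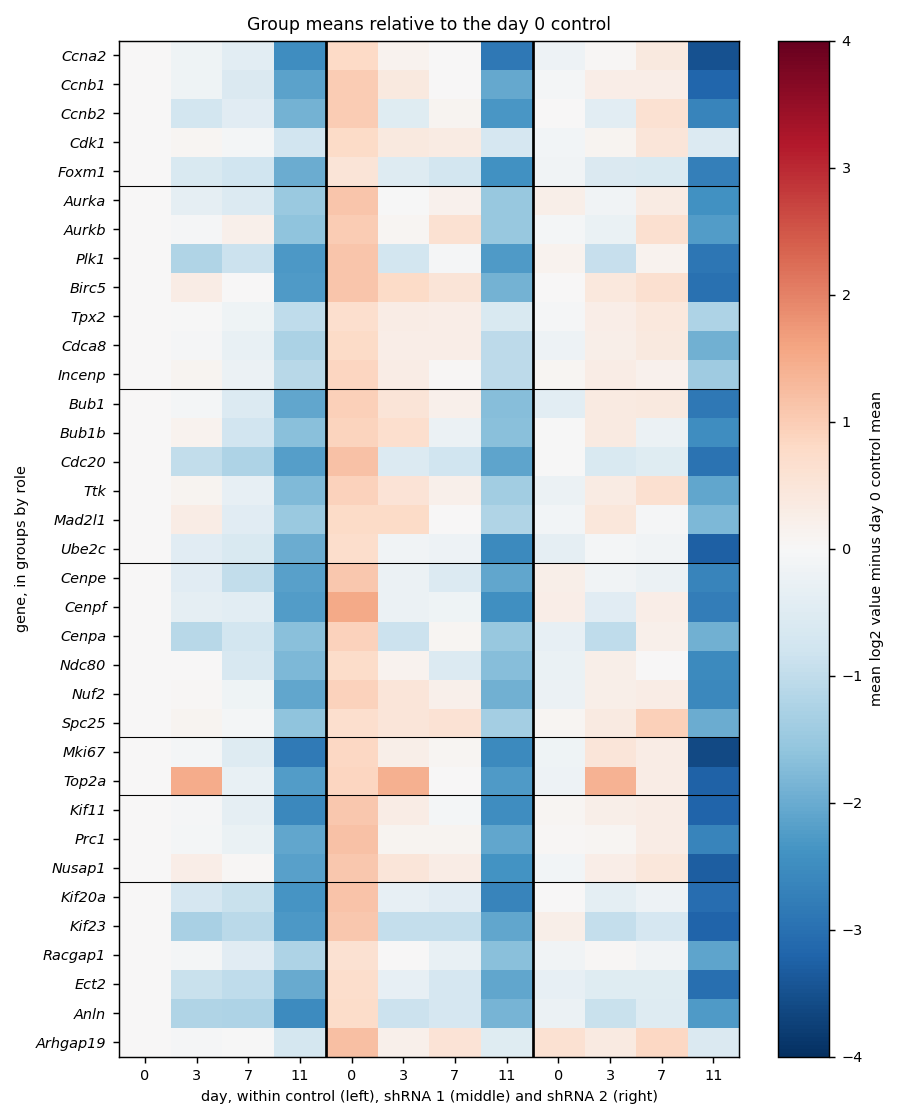
Group means of the 35 genes (rows, in groups by role) relative to the day 0 control, by day within the control, shRNA 1 and shRNA 2 (columns); the colour is the difference in mean log2 value. The day 0 column of shRNA 1 is above the control for all 35 genes, the day 11 column is the lowest of its arm for all 35 genes in every arm, and Top2a stands above the day 0 control at day 3 in every arm.

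At day 0 the shRNAs differed in these genes. With shRNA 1 all 35 genes were called higher than in the control, by 0.52 (Foxm1) to 1.53 (Cenpf), with a median of 0.91. Of all genes tested, 15.8% were called higher and 18.9% lower. The members called highest were Cenpf, Arhgap19 and Prc1, the microtubule cross-linker of the spindle midzone. With shRNA 2 only Arhgap19, Cenpf and Cenpe rose, 10 genes fell, 22 were not called, and the median was −0.08, where 7.38% of all genes were higher and 10.2% lower. The falls were small, with Bub1 at −0.41, Ube2c at −0.36 and Ect2 at −0.34 the farthest from 0, and the calls for Ube2c and Ect2 were lost without shRNA 2 replicate 2. The count of 13 fell to 5 without shRNA 2 replicate 1 and to 4 without shRNA 2 replicate 2, and with equal totals the share of higher calls over all genes went from 42.0% to 57.0%. Set against each other, all 35 genes were lower with shRNA 2 than with shRNA 1, from −0.59 in Arhgap19 to −1.37 in Bub1, where 18.6% of all genes were higher and 16.4% lower. With the shRNAs joined as 1 knockdown group, the difference between them enters the spread, and Arhgap19 alone was called (0.91, SE 0.14, adjusted p = 0.00901). By the adjusted p, 0.817% of all genes were called higher and 2.44% lower. An unadjusted limma p under 0.05 was found for 9 of the 35, against 2609 of all 13216 genes tested. The median of the 35 was 0.37. With equal totals the share of higher calls over all genes in that comparison went from 25.1% to 43.3%.

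By day 3 the direction was shared. Against the control, 21 of the 35 genes rose in the joined knockdown group and none fell (median 0.30), where 14.6% of all genes rose and 12.1% fell. Bub1, Ccnb1 and Ect2 rose most, at 0.53, 0.49 and 0.47. With shRNA 1, 25 rose and none fell (median 0.31; all genes 20.6% higher, 18.7% lower), and 16 did without shRNA 1 replicate 1. With shRNA 2, 17 rose and none fell (median 0.23; all genes 16.8% higher, 14.5% lower), and 7 did without shRNA 2 replicate 2. All 6 checkpoint and anaphase-promoting genes rose in the joined group, from 0.32 in Mad2l1 to 0.53 in Bub1. Of the 7 kinase and passenger genes 4 rose, and of the 6 kinetochore genes Cenpe and Spc25 did. Of these calls, Birc5 was lost in 11 and Incenp in 9 of 15 alternatives, most of them with 1 library left out. Those for Spc25 and Ttk were lost without shRNA 1 replicate 1 or control replicate 3, for Spc25 and Cenpe without control replicate 2, and for Ttk and Ube2c without control replicate 4. Between the shRNAs, Mki67 was higher with shRNA 2 and Cdk1, Bub1b, Aurkb, Birc5 and Mad2l1 were lower, against 10.6% of all genes higher and 8.94% lower. That count of 6 was 2 without shRNA 1 replicate 1, 3 without shRNA 1 replicate 2 and 3 without shRNA 2 replicate 1.

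At day 7 the genes were higher with either shRNA. In the joined group 32 of the 35 rose and none fell, with a median of 0.55, where 24.9% of all genes rose and 22.6% fell. Plk1 (0.91, SE 0.09, adjusted p = 1.37e-06), Cenpa (0.87, SE 0.09, adjusted p = 1.76e-06) and Bub1 (0.85, SE 0.11, adjusted p = 1.14e-05) rose most. The 3 genes not called were Kif23, Ndc80 and Foxm1, at 0.28, 0.37 and 0.12. With shRNA 1, 30 rose (median 0.44; all genes 27.7% higher, 24.3% lower, the share of higher calls going from 53.2% to 42.5% with equal totals). With shRNA 2, all 35 rose, from 0.20 in Foxm1 to 1.05 in Ccnb2, with a median of 0.66, where 24.0% of all genes were higher and 22.0% lower. The calls for Foxm1 and Kif23 with shRNA 2 were lost without shRNA 2 replicate 2 or control replicate 1, 2 or 3, and that for Kif23 also without either shRNA 1 library. Spc25, a subunit of the Ndc80 complex, and Plk1 followed Ccnb2 at 1.02 and 1.01. Set against shRNA 1, shRNA 2 gave 5 genes higher and none lower: Ndc80 (0.58), Ccnb2 (0.49), Ttk (0.43), Ccna2 (0.37) and Kif11 (0.37), where 7.52% of all genes were higher and 8.90% lower. None of these 5 calls was left without shRNA 1 replicate 2 or without shRNA 2 replicate 2, and 11 genes were called without control replicate 3; with equal totals the share of higher calls over all genes went from 45.8% to 61.9%.

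At day 11 the shRNAs parted again. With shRNA 2, 29 of the 35 genes fell and none rose (median −0.67), where 17.4% of all genes rose and 19.4% fell. Ube2c (−1.27, SE 0.13, adjusted p = 1.45e-06), Nusap1 (−1.15, SE 0.15, adjusted p = 9.82e-06) and Ccnb1 (−1.03, SE 0.13, adjusted p = 9.11e-06) fell most. The 6 not called were Cdk1, Cenpa, Spc25, Ttk, Anln and Arhgap19, of which Cdk1, Anln and Arhgap19 had differences above 0. With shRNA 1 the median was 0.08: Anln (0.66), Tpx2, the activator of Aurora A (0.43), and Mad2l1 (0.29) rose, and Ube2c (−0.55), Ccnb2 (−0.45), Racgap1 (−0.42) and Foxm1 (−0.42) fell, where 21.4% of all genes rose and 22.2% fell. The 3 rises and 4 falls among the 35 genes thus lie below the background. The call for Ccnb2 was lost without either shRNA 1 library or control replicate 3 or 4, and that for Mad2l1 without either shRNA 1 library or control replicate 3. Between the shRNAs, 27 genes were lower with shRNA 2 and none higher (median −0.66), where 11.6% of all genes were higher and 10.4% lower. The joined group gave 1 gene higher, Anln (0.45, SE 0.14, adjusted p = 0.0259), and 6 lower, led by Ube2c (−0.91, SE 0.19, adjusted p = 0.00358), with Ccna2, Nusap1, Racgap1, Ccnb2 and Foxm1 between −0.69 and −0.59; 16.8% of all genes were higher and 16.2% lower, so that the count of lower members lies near the background and that of higher members below it. Those 7 calls became 14, all lower, without shRNA 1 replicate 2, and 4 without control replicate 3; the calls for Ccna2 and Nusap1 were lost when most of the single libraries were left out.

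**Figure D3:**
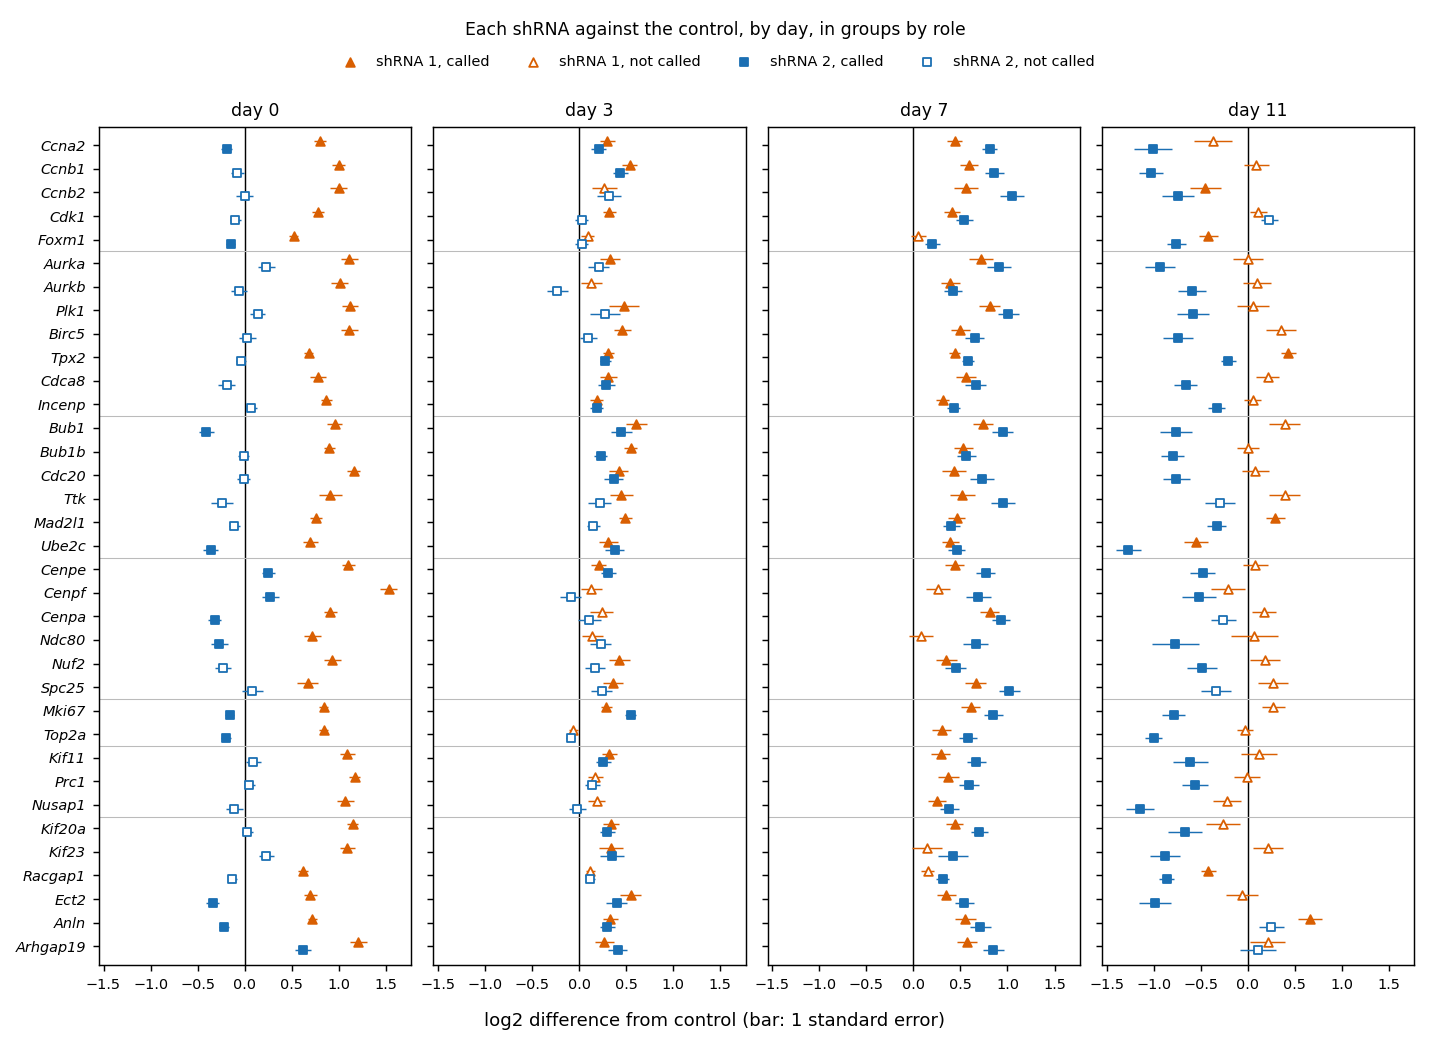
Log2 difference of each shRNA from the control for the 35 genes on each day (bars: 1 standard error of the fit; filled symbols: adjusted p under 0.05). On day 0 shRNA 1 lies at 0.52 to 1.53 and shRNA 2 at −0.41 to 0.62, on day 7 both lie above 0, and on day 11 shRNA 2 reaches −1.27.

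The change of the knockdown effect from day to day was tested over all 32 libraries, with the effect taken as the mean of both shRNAs minus the control. Over the first step the medians of the shRNAs moved in opposite directions, the median difference from the control going from 0.91 to 0.31 with shRNA 1 and from −0.08 to 0.23 with shRNA 2, so that the mean effect stands for neither. From day 0 to day 3 that mean effect fell in 8 of the 35 genes and rose in none (median −0.13), where 10.0% of all genes rose and 8.27% fell, with the share of higher calls going from 54.8% to 41.6% at equal totals. Cenpf fell most (−0.88, SE 0.16, adjusted p = 8.87e-05), then Arhgap19 (−0.57) and Aurkb (−0.52). From day 3 to day 7 it rose in 17 and fell in none (median 0.30), led by Cenpa, Spc25 and Aurka at 0.69, 0.54 and 0.54, where 19.5% of all genes rose and 17.1% fell. That count was 11 without day 3 control replicate 1 or day 7 shRNA 1 replicate 1, 10 without day 7 shRNA 2 replicate 2 or day 7 control replicate 1, and 9 without day 7 control replicate 3. From day 7 to day 11 it fell in 34 of the 35 (median −0.84), where 11.1% of all genes rose and 15.0% fell. Ccnb2, Ube2c and Ccna2 fell most, at −1.41, −1.33 and −1.32. Anln, at −0.18, SE 0.13, adjusted p = 0.325, was the gene not called.

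Among the regulators of mitotic entry, Ccnb1, the cyclin B that drives Cdk1 into mitosis, read 1325 and 1267 normalized reads with shRNA 1 at day 0, 617 and 551 with shRNA 2 and 598, 673, 606 and 596 in the control. The shRNA 1 libraries were above every other library of that day (1.00, SE 0.07, adjusted p = 6.00e-13), and shRNA 2 overlapped the control. At day 7 Ccnb1 read 632 and 608 with shRNA 1, 719 and 799 with shRNA 2 and 436, 399.6, 325 and 448 in the control, so that all 4 knockdown libraries stood above all controls. At day 11 it read 122 and 131 with shRNA 1, 44.7 and 43.6 with shRNA 2 and 133, 132, 105 and 105 in the control, with both shRNA 2 libraries below all others (−1.12, SE 0.15, adjusted p = 6.53e-05 for shRNA 2 against shRNA 1). Cdk1, the kinase of both cyclin partners, behaved otherwise at the end of the course. At day 0 it read 1415 and 1402 with shRNA 1, 733 and 741 with shRNA 2 and 849, 817, 764 and 753 in the control, a rise with shRNA 1 of 0.78, SE 0.06, adjusted p = 9.48e-12. On day 11 it stood at 494 and 471 with shRNA 1, 518 and 535 with shRNA 2 and 499, 463, 429 and 391 in the control. Its difference with shRNA 2 was then 0.23, SE 0.09, adjusted p = 0.0569, not called, while Ccna2, Ccnb1 and Ccnb2 all fell there, Ccnb2 not without shRNA 2 replicate 1. Its change of effect from day 7 to day 11 (−0.30, SE 0.09, adjusted p = 0.0125) was small beside those of the cyclins and was not called without day 7 shRNA 2 replicate 2.

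Foxm1 is a forkhead transcription factor of late cell cycle genes. It read 2093 and 2234 with shRNA 1 at day 0, 1341 and 1322 with shRNA 2 and 1443, 1531, 1525 and 1433 in the control, the smallest rise with shRNA 1 among the 35 genes (0.52, SE 0.05, adjusted p = 7.95e-10). At day 7 it read 867 and 856 with shRNA 1, 902 and 1014 with shRNA 2 and 801, 829, 769 and 923 in the control, with overlap between the groups and 0.12, SE 0.07, adjusted p = 0.167 in the joined knockdown. By day 11 the gene read 241 and 255 with shRNA 1, 176 and 203 with shRNA 2 and 319, 351, 337 and 366 in the control. All 4 knockdown libraries were then below all controls, and the fall was called in the joined group (−0.59, SE 0.11, adjusted p = 0.00141) and with each shRNA. Of the annotated exon bases of Foxm1, 2.5% overlap another gene on the same strand.

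Among the kinases, Plk1, which acts from mitotic entry to cytokinesis, read 848 and 914 with shRNA 1 at day 0, 449 and 392 with shRNA 2 and 364, 385, 373 and 383 in the control. At day 3 the control had dropped to 179.9, 118, 129 and 168, with 279 and 165 for shRNA 1 and 173 and 194 for shRNA 2. The 2 shRNA 1 libraries of that day differed widely from each other, and its call of 0.48 there was lost without shRNA 1 replicate 1 or control replicate 2 or 3. At day 7 it read 364 and 350.3 with shRNA 1, 372 and 467 with shRNA 2 and 194, 194, 184 and 189 in the control, the largest rise of the 35 genes in the joined group. At day 11 it read 58.2 and 56.8 with shRNA 1, 31.9 and 26.6 with shRNA 2 and 39.9, 78.5, 58.0 and 52.9 in the control, lower with shRNA 2 (−0.58, SE 0.17, adjusted p = 0.0129); without shRNA 2 replicate 2 that call was lost. Aurkb, the kinase of the chromosomal passenger complex, read 547 and 644 with shRNA 1 at day 0, 242 and 280.0 with shRNA 2 and 297, 260.1, 256 and 280.2 in the control. It was not called at day 3 in any comparison with the control, and at day 7 it rose with shRNA 1 (0.39, SE 0.10, adjusted p = 0.00158) and with shRNA 2 (0.42, SE 0.10, adjusted p = 0.000941). On day 11 it stood at 78.6 and 76.1 with shRNA 1, 28.7 and 51.0 with shRNA 2 and 75.7, 77.6, 69.4 and 65.9 in the control, and fell with shRNA 2 (−0.59, SE 0.15, adjusted p = 0.00430). The day 7 call with shRNA 1 was lost without shRNA 1 replicate 1, and the day 11 call without shRNA 2 replicate 1. All 7 genes of the group, with Aurka, Birc5, Cdca8, Incenp and Tpx2, rose at day 7 with each shRNA and were called lower at day 11 with shRNA 2. Of those day 11 calls, that for Tpx2 (−0.21, adjusted p = 0.0491) was lost in 10 of 15 alternatives, among them those without either shRNA 2 library or control replicate 2, 3 or 4, and that for Incenp was lost without shRNA 2 replicate 2.

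Bub1b, the BubR1 protein of the spindle checkpoint, read 1430.0 and 1469 with shRNA 1 at day 0, 739 and 740.0 with shRNA 2 and 733, 815, 727 and 717 in the control. At day 3 it read 1283 and 1187 with shRNA 1, 914 and 1029.9 with shRNA 2 and 813, 808, 815 and 851 in the control, with all 4 knockdown libraries above the controls and shRNA 1 above shRNA 2 (−0.33, SE 0.08, adjusted p = 0.00175 for shRNA 2 against shRNA 1). Without shRNA 1 replicate 1 or shRNA 2 replicate 1 the difference between the shRNAs was not called, and without shRNA 2 replicate 2 the rise with shRNA 2 was not. By day 11 the gene read 194 and 229 with shRNA 1, 92.5 and 129 with shRNA 2 and 220.4, 221, 216 and 189 in the control. Only the shRNA 2 libraries were low (−0.80, SE 0.12, adjusted p = 8.18e-05), and shRNA 1 differed from the control by 0.00. On the deposited log2 scale its kinase partner Bub1 showed the widest gap between the shRNAs of all 35 genes at day 0 (−1.37, SE 0.09, adjusted p = 6.16e-13). It did so on that scale at day 11 too (−1.14, SE 0.19, adjusted p = 0.000507). As a ratio of mean normalized reads, the day 11 gap was wider in Nusap1, Birc5 and Kif23 than in Bub1. Ube2c was the checkpoint-group gene that fell at day 11 with both shRNAs, at −0.55 and −1.27; 22.8% of its annotated exon bases overlap Tnnc2 on the other strand.

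At the kinetochore, Cenpf, a large protein that builds up in G2 and binds kinetochores, showed the largest rise of day 0. It read 924 and 982 with shRNA 1, 371 and 362 with shRNA 2 and 297, 339, 295 and 264 in the control, at 1.53, SE 0.09, adjusted p = 1.13e-14 for shRNA 1. With shRNA 2 its libraries also lay above the controls (0.27, SE 0.09, adjusted p = 0.0280), a call that was lost without either shRNA 2 library or control replicate 4. By day 3 the groups overlapped, at 256 and 241 with shRNA 1, 213 and 206 with shRNA 2 and 258, 212, 204 and 229 in the control. At day 11 it read 23.5 and 50.0, 26.6 and 21.3 and 47.2, 39.2, 39.9 and 56.7 in the same order, with the 2 shRNA 1 libraries on both sides of the control mean. Cenpa, Ndc80 and Bub1 were among the genes that fell with shRNA 2 at day 0 while they rose with shRNA 1; the call for Ndc80 was lost when most of the single libraries were left out, and that for Cenpa without shRNA 2 replicate 1. Mki67, which coats mitotic chromosomes and is the usual marker of cycling cells, read 2571 and 2708 with shRNA 1 at day 0, 1311 and 1242 with shRNA 2 and 1362, 1453, 1464 and 1457 in the control. At day 3 it read 1673 and 1699, 1957 and 2095 and 1399, 1199, 1448 and 1418, where shRNA 2 gave the higher level (0.55, SE 0.06, adjusted p = 1.09e-08, against 0.29 with shRNA 1). On day 11 it stood at 210.4 and 218, 76.5 and 99.9 and 154, 166, 178 and 202: shRNA 1 lay above and shRNA 2 below all controls, of which the second was called (−0.79, SE 0.12, adjusted p = 9.07e-05).

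Of the cytokinesis genes, Kif23, the motor subunit of centralspindlin, read 828 and 915 with shRNA 1 at day 0, 455 and 447 with shRNA 2 and 344, 389, 425 and 356 in the control. At day 3 it read 187 and 168 with shRNA 1, 188 and 170.2 with shRNA 2 and 164, 114, 127 and 138 in the control. At day 7 its control libraries spread over 144, 160.2, 124 and 229, and the joined knockdown was not called. By day 11 the gene read 68.4 and 67.0 with shRNA 1, 18.1 and 21.3 with shRNA 2 and 49.6, 44.9, 56.1 and 78.9 in the control, with shRNA 2 far below the rest (−0.88, SE 0.16, adjusted p = 0.000382). Its mean normalized reads, 19.7 with shRNA 2 against 57.4 in the control, lie farther apart than this deposited log2 difference gives. Ect2, the exchange factor that activates RhoA at the furrow, read 992 and 899 with shRNA 1 at day 0, 452 and 411 with shRNA 2 and 547, 582, 529 and 574 in the control. It thus moved both ways, up with shRNA 1 (0.70) and down with shRNA 2 (−0.34, SE 0.07, adjusted p = 0.000992), the second call being lost without shRNA 2 replicate 2. At day 3 it read 475 and 394, 332 and 453 and 269, 261, 294 and 317, with all knockdown libraries above all controls. At day 11 it read 92.9 and 127, 60.6 and 32.9 and 99.2, 108, 135 and 124, and fell with shRNA 2 (−0.99, SE 0.17, adjusted p = 0.000181). Anln stayed above the control on day 11 in all 4 knockdown libraries, at 283 and 336 with shRNA 1 and 223 and 229.5 with shRNA 2 against 150.5, 216, 178 and 209; its call in the joined group was lost without either shRNA 1 library or control replicate 1 or 3.

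Arhgap19, a GTPase-activating protein for RhoA, had the largest rise of the 35 genes at day 0 with shRNA 2; Cenpe and Cenpf were the others called higher with both shRNAs. With shRNA 2 the call for Cenpe (0.25, adjusted p = 0.0216) was lost without either shRNA 2 library or control replicate 1 or 3. Arhgap19 read 619 and 551 with shRNA 1, 359 and 384 with shRNA 2 and 222, 228, 237 and 230.4 in the control, so that all 4 knockdown libraries lay above all controls. The rise was 1.21, SE 0.09, adjusted p = 2.15e-12 with shRNA 1 and 0.62, SE 0.09, adjusted p = 4.29e-06 with shRNA 2, and the shRNAs still differed from each other (−0.59, SE 0.10, adjusted p = 2.35e-05). Its call in the joined group held with each library left out in turn, but not with the replicate number as a block (0.94, adjusted p = 0.481). At day 3 it read 249 and 295 with shRNA 1, 299.8 and 303 with shRNA 2 and 223, 209, 211 and 232 in the control, and at day 7 367 and 335, 381 and 496 and 220.4, 216, 218 and 244. It was called higher on both days with each shRNA, at 0.27 and 0.57 with shRNA 1 and 0.41 and 0.85 with shRNA 2; the day 3 call with shRNA 1 was lost without shRNA 1 replicate 2 or control replicate 2 or 3. On day 11 it stood at 219 and 107, 138 and 146 and 118, 133, 121 and 151. The 2 shRNA 1 libraries then stood on either side of the controls and nothing was called. The control kept more of this RNA through day 11 than of any other of the 35 genes.

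**Figure D4:**
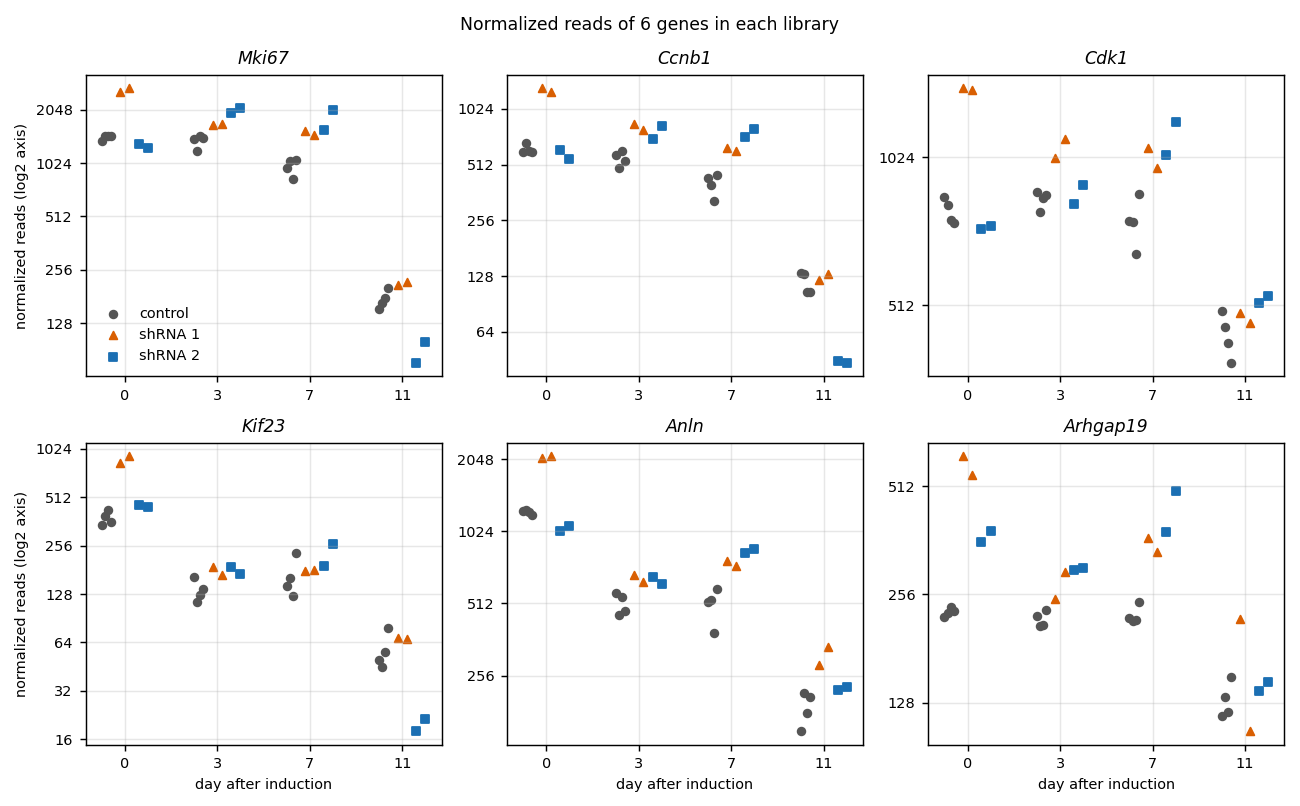
Normalized reads (log2 axis) of Mki67, Ccnb1, Cdk1, Kif23, Anln and Arhgap19 in each library by day, for the control (circles), shRNA 1 (triangles) and shRNA 2 (squares). Arhgap19 is above the controls in all knockdown libraries of days 0, 3 and 7, while Mki67, Ccnb1 and Kif23 are below them with shRNA 2 at day 11 and Cdk1 is not.

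A list of 78 other mitosis genes, all in the table, gives the rest of the pathway. At day 0, 73 of them rose and none fell with shRNA 1 (median 0.66), and none rose and 15 fell with shRNA 2 (median −0.09), where 15.8% of all genes were higher with shRNA 1 and 10.2% lower with shRNA 2. In the joined group 27 rose and 1 fell at day 3 (median 0.21), 46 rose and 1 fell at day 7 (median 0.36), and 3 rose and 14 fell of the 77 tested at day 11 (median −0.20). Of all genes 14.6% were higher at day 3 and 24.9% at day 7, and 16.2% were lower at day 11, which is near the share of this list. With shRNA 2 alone, 44 fell and 3 rose at day 11, against 8 and 6 with shRNA 1, where 19.4% and 22.2% of all genes were lower. Depdc1a (0.62) and Cenpw (0.56) rose most at day 3, and Cdca3 (0.99) and the abscission protein gene Cep55 (0.88) at day 7. Psrc1 fell at days 3, 7 and 11 (−0.54, −0.67 and −0.58). At day 11 the cyclin F gene Ccnf rose (1.03), as did the CENP-A chaperone gene Hjurp (0.24), while Stmn1, a gene for a microtubule destabilizer, and the chromokinesin gene Kif4 fell (−1.12 and −0.90).

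Of a list of 24 genes for the factors that control such genes, 23 were in the table: the MuvB core and its partners, the Rb and E2F families, NF-Y, Trp53 and Cdkn1a. In the joined group 1 was called lower at day 0, 4 higher and 1 lower at day 3, 9 higher and 3 lower at day 7, and 3 higher and 2 lower at day 11. Over all genes 2.44% were lower at day 0, 14.6% higher and 12.1% lower at day 3, 24.9% and 22.6% at day 7 and 16.8% and 16.2% at day 11, so that the counts of higher calls at days 3 and 11 lie near the background. Mybl2, the gene for B-Myb, rose at day 3 (0.37, SE 0.08) and at day 7 (0.61, SE 0.09), and in the control it fell by 1.53 from day 7 to day 11. Rb1 was higher at day 3 (0.27), day 7 (1.02) and day 11 (0.84). Cdkn1a, the gene for the p21 inhibitor of cyclin-dependent kinases, was lower at day 0 with shRNA 1 (−0.46) and with shRNA 2 (−0.17) and higher in the joined group at day 11 (0.77, SE 0.06). At day 0, 11 of the 23 were higher with shRNA 1 and 1 with shRNA 2, while 7 were lower with shRNA 2 (all genes 15.8%, 7.38% and 10.2%); Lin9, Rbbp4, E2f2, E2f5, E2f7 and E2f8 were called higher with shRNA 1 and lower with shRNA 2. E2f8 was 0.80 with shRNA 1 and −0.32 with shRNA 2.

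Reads of some members could be shared with neighbouring genes, since the strand setting of the counting is not given in the sources used here. By GENCODE M21 exons, overlap with a gene on the other strand covers 29.3% of Kif20a, 22.8% of Ube2c, 12.5% of Ccna2, 11.1% of Prc1, 7.1% of Plk1, 4.5% of Cdca8, 4.2% of Nusap1 and 2.8% of Cdc20. For these genes, reads of both strands cannot be told apart.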

How the data were processed

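RNA was sequenced from 32 libraries of 3T3-L1 cells with an Illumina TruSeq kit, per the labels' protocols. The submitters' processing notes name TopHat2 2.1.0, Bowtie2 2.2.6, SAMtools 1.3.1 and HTSeq 0.6.1; the genome build, annotation, transform and strand setting are not given in the sources used here. The authors deposited 1 table of log2 values for 20560 genes (−1.56 to 17.99), whose form matches a regularized log of counts. Reads were rebuilt by inverting that form: 95.8% of values came within 0.1 of a whole read (20.0% would by chance), 87.8% of genes were whole in all libraries, and all values of the 35 genes were. On simulated reads put through that same form, 100.00% of the read counts of 20266 genes were rebuilt exactly. That run tests the inversion and cannot show whether the deposited table has this form. The reads rebuilt from the deposited table gave 22280321 to 31073716 reads in genes per library.

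Groups came from the sample titles. Genes with 2 to the value of at least 10 in at least 4 libraries of a fit were tested with limma 3.58.1 (trend, robust) in R 4.3.3 on the log2 values as deposited, with Benjamini-Hochberg adjustment over all genes tested and a threshold of 0.05. Each day's 8 libraries were fitted as 2 groups and as 3, the 16 control libraries as 4 days, and all 32 for changes of effect. Alternatives were a pseudocount of 10, no filter, equal library totals, plain limma, voom on rebuilt reads, a replicate block, the shRNAs as separate groups, 1 fit of all libraries and each library left out. Same-numbered libraries of different groups showed no steady correlation of their deviations, so the numbers were not taken as pairs. Replicates of a group differed by more than sampling noise (chi-square per degree of freedom 3.00 to 11.8), and none was counted as a duplicate. The labels call them biological replicates without naming the cultures, so p-values measure the spread between these libraries.

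Named genes were the 35, of which Mki67, Ccnb1, Cdk1, Plk1, Aurkb, Bub1b, Cenpf, Kif23, Ect2, Foxm1 and Arhgap19 were always described per library, with the 3 largest called differences each way per comparison and the 2 largest each way of the other mitosis genes. Other genes named in the text, such as the regulators, were chosen after their values were seen. The members and lists were chosen with earlier results of these data known. Promoter windows are RefSeq's and exon overlaps GENCODE M21's, matched by symbol and Ensembl identifier. Figures used matplotlib 3.10.9 in Python 3.11.15.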

Additional observations from a re-analysis of the deposited data

Results flagged for a closer look

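In 10 of 144 sets of 4 control libraries, 1 library stood far from the other 3 (a gap above Dixon's critical value); by chance about 1 set in 20 would show this. At day 0 these were Mki67 in replicate 1 (log2 value 10.38, lowest), Ccnb1 in replicate 2 (9.34, highest), and Aurka (8.19) and Birc5 (8.42) in replicate 3, both highest. At day 3 they were Bub1b in replicate 4 (9.69, highest) and Birc5 in replicate 2 (8.36, lowest). At day 7 they were Cdc20 (7.50, lowest) and Ect2 (8.16, highest) in replicate 1. At day 11 they were Bub1b in replicate 4 (7.70, lowest) and Tpx2 in replicate 1 (9.23, lowest).

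The effect of the knockdown differed between the shRNAs, by a test of the difference itself, in 35 of the 35 genes at day 0, where 18.6% of all genes were higher with shRNA 2 than with shRNA 1 and 16.4% lower, and in 27 at day 11 (11.6% and 10.4%). It differed in 6 at day 3, 1 higher and 5 lower (10.6% and 8.94%), and in 5 at day 7, all higher (7.52% and 8.90%). Without shRNA 1 replicate 1 the count at day 3 was 2, and without shRNA 1 replicate 2 or shRNA 2 replicate 1 it was 3. At day 7 it was 0 without shRNA 1 replicate 2 or shRNA 2 replicate 2, and 11 without control replicate 3. Between days, by the test of the change of effect, it differed in 8 genes from day 0 to day 3, all lower (all genes 10.0% higher and 8.27% lower). It differed in 17 from day 3 to day 7 (19.5% and 17.1%), with 9 to 11 without any of 5 libraries, the fewest without day 7 control replicate 3, and in 34 from day 7 to day 11 (11.1% and 15.0%).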

How the results depend on the processing

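Counts of called members that kept within 1.5 times under every alternative run were those of all 35 genes with shRNA 1 at day 0, between the shRNAs at days 0 and 11, in the joined knockdown at day 7, with shRNA 1 at day 7, with shRNA 2 at days 7 and 11, in the 3 steps of the control, and in the changes of effect from day 0 to 3 and day 7 to 11. No called difference changed sign. With the replicate number as a block, which the data do not show to pair libraries, the joined knockdown gave 0 members at day 0, 4 at day 3 and 0 at day 11, and no gene of the whole table was called at day 0. With the shRNAs as separate groups it gave 35 at day 0 and 17 at day 11. A pseudocount of 10 gave 4 for the joined knockdown at day 11, 5 and 9 for shRNA 2 at days 0 and 3, and 3 and 0 between the shRNAs at days 3 and 7. Without the filter shRNA 2 gave 6 at day 0 and 9 at day 3, and the shRNAs differed in 0 at day 7. Plain limma gave 6, 10 and 1 for the same results. Equal totals gave 8 between the shRNAs at day 7 and 11 for the change of effect from day 3 to day 7, and voom gave 8 between the shRNAs at day 7. In 1 fit of all libraries shRNA 2 gave 3 at day 0 and 11 at day 3, the shRNAs differed in 3 at day 3, and shRNA 1 gave 11 at day 11. The cause of these shifts was not tested. With each library left out in turn, the counts ran from 4 to 14 (joined knockdown, day 11), 16 to 26 (shRNA 1, day 3), 4 to 12 and 7 to 19 (shRNA 2, days 0 and 3), 2 to 6 and 0 to 11 (between shRNAs, days 3 and 7) and 9 to 18 (change of effect, day 3 to 7). Each shRNA had 2 libraries a day, and no detection limit was measured. With voom the median difference of the 35 genes at day 11 was −0.91 for shRNA 2 against the control, where the deposited values gave −0.67. Counting error is widest at day 11, where Nusap1 with shRNA 2 read 11.7 and 9.56 normalized reads.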
